A study of Mus musculus with 32 samples.

Results

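Carbon ion radiation was compared here with no radiation in mouse KPC36 tumours, using 16 of the 32 bulk RNA libraries of the study: all 8 libraries labelled as carbon-ion treated and all 8 labelled as carbon-ion controls, which were left untreated. The members were taken by the treatment label alone, without regard to any measured value. KPC36 is a mouse tumour cell line. The study concerns pancreatic ductal adenocarcinoma, and every library of both groups carries the same labels for line, tumour tissue and malignant cell type, so both groups are tumours of a single line. The dose, the host strain, the age of the mice and the site of the tumours were not given in the labels used here. Tumours were taken at 4 and 7 days after treatment, with untreated tumours at the same days, but no label used here ties a library to its day, so days could not be compared. Titles begin with D or with M, letters that the labels do not explain: D stands in 4 control and 3 irradiated titles, and M in 4 control and 5 irradiated titles. Nothing in the labels says that the libraries of a group came from separate animals, so p-values measure only the spread between these libraries.

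Carbon ions deposit energy densely along their path and cause clustered breaks in DNA. Broken DNA activates p53, a transcription factor that switches on genes for cell cycle arrest and cell death, among them Cdkn1a. DNA that reaches the cytoplasm can be sensed through cGAS and STING, which leads to type I interferon. Type I interferon acts on genes through a promoter sequence called the interferon-stimulated response element, and interferon gamma through the gamma-activated sequence. The genes so induced encode antiviral proteins such as ISG15 and the IFIT family, and large immune GTPases that attack the vacuoles of pathogens inside cells.

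Before the results, the libraries themselves need a description. Summed estimated counts ran from 25983694 to 44819131 in the controls and from 22777950 to 71645903 in the irradiated libraries. The largest belonged to irradiated replicate 7. Epithelial markers were present in every library, with a summed level of 3832 to 6439 CPM (each count relative to the scaled library total) in the controls and 3725 to 6616 CPM after irradiation. None of the 8 pancreatic acinar markers passed the filter on low counts. Skeletal muscle markers spanned 11.8 to 4999 CPM in the controls and 27.4 to 8302 CPM in the irradiated libraries, so the amount of muscle RNA varied widely inside both groups. The irradiated libraries were also more varied: the median standard deviation of a gene was 0.27 log2 CPM in the controls and 0.36 in the irradiated libraries, and 74.4% of genes had the larger value after irradiation. Irradiated replicates 2 and 7 lay close to the controls for interferon genes and Cdkn1a, and genes that passed the edgeR test only without replicate 7 are given with and without it where they are described.

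No single gene passed the threshold. Of 19144 genes tested with edgeR's quasi-likelihood test, 0 had a Benjamini-Hochberg adjusted p under 0.05 (0% called), and the lowest adjusted value was 0.158. At an unadjusted p under 0.05 there were 995 genes, 5.2% of those tested, with 661 higher (3.45%) and 334 lower (1.74%) after carbon ions. DESeq2 called 53 genes (0.277%), 42 higher and 11 lower, and limma voom with sample quality weights called 6, all higher. With irradiated replicate 7 left out, edgeR called 13 genes, 11 higher and 2 lower, with adjusted p from 0.0136 to 0.0432. That library had the lowest Isg15 level of the irradiated libraries. Leaving out any other single library gave 0 called genes, so values without replicate 7 describe its weight and are not a separate test. The values below are therefore described by their levels, their spread and their counts, beside the same counts over all genes. The median log2 fold change over all tested genes was 0.01, and 52.8% lay above 0.

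Interferon-stimulated genes stood at the head of the ranking. Of 36 listed, all 36 were tested and all 36 lay higher in the irradiated tumours, with a median log2 fold change of 1.16 against 0.01 over all genes. An unadjusted p under 0.05 was reached by 32 of 36 in the higher direction, beside 3.45% of all genes, and none of the 36 passed adjustment in edgeR. The list held 5 of the 10 genes with the smallest p, 13 of the first 50 and 19 of the first 100. DESeq2 called 14 of them, beside 0.219% of all genes in the higher direction. In bulk tissue, more RNA per cell and more cells that carry the RNA cannot be told apart.

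Promoters of some of these genes hold the response element. The windows of 60 bases below were picked from the promoters that hold it, for genes with a small p or a large difference. They come from RefSeq promoter sequences of build GRCm38.p6, are written 5′ to 3′ on the strand of the gene, and lie before the start that RefSeq annotates. Capitals mark the core of the interferon-stimulated response element, searched as GAAA, any 2 bases and GAAA again, or the reverse complement of that, TTTC, any 2 bases and TTTC.
Isg15: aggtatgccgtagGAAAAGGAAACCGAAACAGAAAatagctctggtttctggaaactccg
Bst2: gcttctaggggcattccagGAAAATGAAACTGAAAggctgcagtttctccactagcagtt
Ifit3: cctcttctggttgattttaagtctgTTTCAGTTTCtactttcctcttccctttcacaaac
Tgtp1: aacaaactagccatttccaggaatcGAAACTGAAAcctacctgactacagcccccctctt
Igtp: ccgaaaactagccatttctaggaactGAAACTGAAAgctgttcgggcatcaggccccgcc
Gbp2: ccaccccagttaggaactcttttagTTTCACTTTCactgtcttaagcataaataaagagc
The Isg15 window is chr4:156200850-156200909 on the minus strand and holds 3 overlapping matches, the last of them 56 bases before the start. The Bst2 window, chr8:71537562-71537621 on the minus strand, holds 2. Ifit3 (chr19:34583382-34583441, plus), Tgtp1 (chr11:48992289-48992348, minus), Igtp (chr11:58199496-58199555, plus) and Gbp2 (chr3:142620579-142620638, plus) hold 1 each. The GENCODE M21 spans of Tgtp1 and Gbp2 begin farther upstream than the RefSeq starts, so by that annotation the Tgtp1 window lies inside the gene and the Gbp2 window runs across its start. The letters of the match in Tgtp1 and Igtp, GAAACTGAAA, are the same as those of the match nearest the start in Bst2.

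The core was searched on both strands from 250 bases before to 50 bases after each start. It occurred in 3.44% of 32851 promoter entries, or in 3.99% of 27025 genes. Of the 36 interferon-stimulated genes 25 had a promoter entry, and 13 of these 25 held the core. Of the 14 immune GTPase genes described below 9 had an entry, and all 9 held it. The gamma-activated sequence TTCNNNGAA, which reads alike on both strands, occurred in 8.3% of entries, or in 9.55% of genes, in 5 of the 25 interferon-stimulated genes and in 6 of the 9 GTPase genes. Matches to both motifs overlapped in 24 entries. A match describes the letters in the window and not a bound site. Both lists were made of genes known to respond to interferon, so their motif shares say nothing about carbon ions.

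Isg15 encodes a small protein that is attached to other proteins in the antiviral state. The gene lies on chromosome 4 at 156199424 to 156200818 (GRCm38, GENCODE M21), and its level had the smallest p of all genes. In the controls it was at 0.86 CPM in the lowest library, 1.45 at the median and 2.05 in the highest, and in the irradiated tumours at 1.88, 5.20 and 13.8 CPM. Of the 8 irradiated libraries 7 lay above every control, and replicate 7, at 1.88 CPM, lay inside the control range. The mean was 1.47 ± 0.42 CPM in the controls and 5.96 ± 3.78 CPM after carbon ions (SD, 8 libraries each), and the log2 fold change was 2.01 ± 0.34 (SE, edgeR adjusted p 0.158). Without irradiated replicate 7 it was 2.15 with an edgeR adjusted p of 0.0136, and without replicate 8, the highest library, 1.71.

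Bst2, also called tetherin, holds budding viruses at the cell surface. It is the only gene of the list whose groups did not overlap, beside 5 genes, or 0.0261% of all tested, that were separated in the higher direction. The controls ran from 6.18 through a median of 8.63 to 10.6 CPM and the irradiated tumours from 10.9 through 16.1 to 26.8 CPM. The log2 fold change was 1.07 ± 0.20 (SE, edgeR adjusted p 0.158), and 1.15 without irradiated replicate 7 (edgeR adjusted p 0.0347). The gap between the groups was narrow, since the highest control and the lowest irradiated library differed by little.

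Xaf1, an interferon-induced gene tied to apoptosis, was at 4.90 to 8.73 CPM in the controls and at 8.57 to 23.5 CPM in the irradiated libraries, with a log2 fold change of 1.18 ± 0.21 (SE, edgeR adjusted p 0.158). Rtp4, a chaperone of membrane receptors, was at 3.21 to 7.36 and 5.88 to 23.5 CPM. Without irradiated replicate 7 the log2 fold changes were 1.26 for Xaf1 (edgeR adjusted p 0.0309) and 1.40 for Rtp4 (edgeR adjusted p 0.0347). In both genes 7 of 8 irradiated libraries lay above every control.

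Some genes with large differences were also uneven between libraries. Ifit3, whose protein takes part in the recognition of foreign RNA, had a log2 fold change of 2.26 ± 0.47 (SE), from a control median of 2.38 CPM to 9.65 CPM, with a highest irradiated library at 30.8 CPM. Without irradiated replicate 7 it was 2.43 (edgeR adjusted p 0.0347). Its near-identical copy Ifit3b was at a log2 fold change of 2.35, or 2.51 without irradiated replicate 7 (edgeR adjusted p 0.0347), and how reads were split between the copies is uncertain. Ifit1 was at 1.65 to 7.18 CPM in the controls and 2.02 to 33.8 CPM after irradiation, and Oas3, which makes the signal that activates RNase L, at 0.72 to 2.89 and 0.64 to 25.6 CPM. These ranges overlapped. Only 4 irradiated libraries lay above every control for Ifit1 and 5 for Oas3.

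Irf7 and Usp18, regulators within the same list, lay higher too. Irf7, the factor that amplifies type I interferon production, had a control median of 6.93 CPM and an irradiated median of 19.6 CPM, with 83.0 CPM in irradiated replicate 8. Its log2 fold change was 1.83 ± 0.43 (SE, edgeR adjusted p 0.289) with that library and 1.31 without it. Usp18, which removes ISG15 from proteins and damps the receptor, had 1.55. Annotated exons of Irf7 overlap those of Phrf1 on the opposite strand, and whether counting used the strand is not stated.

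The sensors upstream of interferon showed little. Of 16 tested genes for nucleic acid sensing and interferon receptors, 12 lay higher and 4 lower, with a median of 0.07 (0.046 without irradiated replicate 8), and 2 reached an unadjusted p under 0.05 in the higher direction, beside 3.45% of all genes: Trex1, the exonuclease that clears cytoplasmic DNA, at 0.38 ± 0.16 (SE), and Ifnar2, a subunit of the type I interferon receptor, at 0.19 ± 0.09. Leaving out 1 library gave 0 to 2, with 0 without control replicate 4 or 8 or irradiated replicate 3. Cgas was at 0.02 and Sting1 at -0.01 on the log2 scale. The RNA sensors Rigi and Ifih1, counted in the interferon-stimulated list, were at 0.44 and 0.55. Interferon itself was hardly detected: the rounded counts of Ifnb1 summed to 2 over all 16 libraries, and so did those of Ifng. At this depth a difference in either could not be measured.

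**Figure D1:**
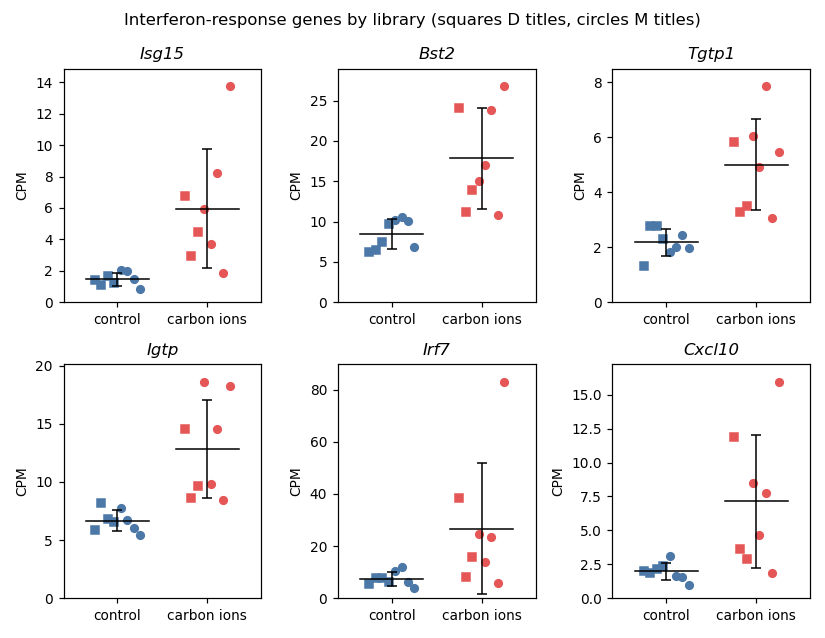
Levels of Isg15, Bst2, Tgtp1, Igtp, Irf7 and Cxcl10 in CPM (vertical axis, from 0) in the 8 control and 8 carbon-ion libraries; points are libraries in replicate order, squares have D titles and circles M titles, the bar is the mean and the whiskers 1 SD. For Bst2, Tgtp1 and Igtp the groups do not overlap, while for Irf7 replicate 8 at 83.0 CPM lies far above the other irradiated libraries.

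The interferon-inducible GTPases, a list put together after their values had been seen, also held genes at the head of the ranking. They comprise guanylate-binding proteins and immunity-related GTPases. All 14 were tested and all 14 lay higher, beside 52.8% of all genes, with a median log2 fold change of 0.79, and 10 reached an unadjusted p under 0.05, beside 3.45% of all genes. Tgtp1 (chromosome 11, 48985327 to 48994172) was at 1.31, 2.16 and 2.78 CPM in the lowest, median and highest control and at 3.08, 5.18 and 7.87 CPM in the irradiated tumours. Its groups did not overlap, and the log2 fold change was 1.20 ± 0.22 (SE, edgeR adjusted p 0.158). Reads may be shared with its close copy Tgtp2, which was at 1.18, and its annotated exons overlap Gm12185. Igtp (chromosome 11, 58199556 to 58207591), at 5.47 to 8.22 CPM in the controls and 8.42 to 18.6 CPM after irradiation, was likewise separated between the groups, with a log2 fold change of 0.94 ± 0.18. Igtp shares annotated exons with Irgm2, which was at 0.72. Without irradiated replicate 7 Tgtp1 was at 1.28 and Igtp at 1.01, each with an edgeR adjusted p of 0.0347. Gbp2 was at 6.28 to 14.1 CPM and 10.5 to 25.4 CPM, so its groups overlapped in part.

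Irradiated tumours differed strongly among themselves in these genes. As the mean log2 CPM of the 36 interferon-stimulated genes minus the control mean, the irradiated replicates 1 to 8 were at 1.57, 0.07, 0.74, 1.22, 0.47, 1.25, -0.13 and 2.06, and the controls between -0.48 and 0.50. Replicates 2, 5 and 7 thus lay inside the control range and the other 5 above it. The GTPase genes showed the same order at both ends, with replicate 8 highest, at 1.34, and replicate 7 lowest. Markers of macrophages and monocytes, scored in the same way, were at 1.17 in replicate 8, 0.80 in replicate 3 and 0.53 in replicate 1, and at -0.42 in replicate 7 and -0.16 in replicate 2. The part of the macrophage markers in the interferon result was not tested.

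**Figure D2:**
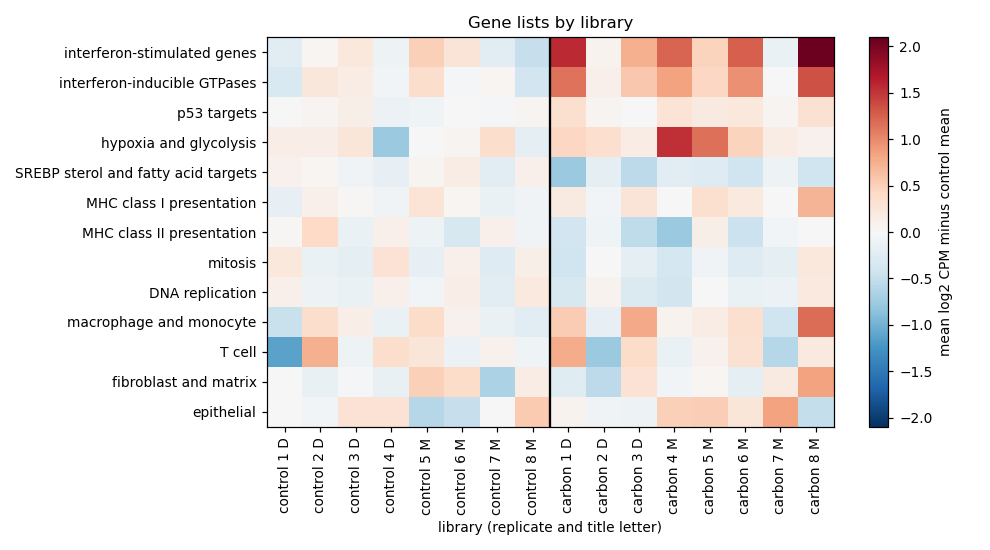
Mean log2 CPM of 13 gene lists (rows) minus the control mean, in each of the 16 libraries (columns, with replicate number and title letter); the colour scale runs from -2.1 to 2.1 and the vertical line separates controls from irradiated tumours. The interferon rows are dark in irradiated replicates 1, 4, 6 and 8 and pale in 2 and 7, and the hypoxia row is highest in replicates 4 and 5.

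Chemokines and surface molecules that follow interferon lay higher in part. Cxcl10, which attracts T cells through CXCR3, was at 1.0, 1.94 and 3.12 CPM in the lowest, median and highest control and at 1.84, 6.18 and 15.96 CPM in the irradiated libraries, with a log2 fold change of 1.85 ± 0.38 (SE, edgeR adjusted p 0.193), and 1.99 without irradiated replicate 7 (edgeR adjusted p 0.0347). Of the irradiated libraries 6 lay above every control. Of 18 chemokines tested 16 lay higher, with a median of 0.35, and 3 reached an unadjusted p under 0.05 in the higher direction, beside 3.45% of all genes: Cxcl10, Cxcl11, another ligand of CXCR3, and Ccl5, which attracts T cells and monocytes. The count was 6 without irradiated replicate 2 and 5 without irradiated replicate 3, 5 or 7 or control replicate 4. Cxcl11 was at a log2 fold change of 0.92 and Ccl5 at 0.82. Cxcl9, the remaining ligand of CXCR3, was at 0.74 ± 0.36 (SE), with overlapping ranges. Annotated exons of Cxcl10 overlap Art3 on the opposite strand.

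Antigen presentation split into its branches. All 16 class I genes lay higher, with a median of 0.20 (0.12 without irradiated replicate 8). B2m and H2-K1 reached an unadjusted p under 0.05, beside 3.45% of all genes in that direction. The count was 5 without irradiated replicate 1, and 1 without irradiated replicate 8 or control replicate 1, 7 or 8. B2m, the invariant chain of class I molecules, was at 150 to 218 CPM in the controls and 209 to 344 CPM after irradiation, a log2 fold change of 0.46 ± 0.10 (SE, edgeR adjusted p 0.25), and 6 irradiated libraries lay above every control. H2-K1 was at 0.52 ± 0.22. Reads of H2-K1 may be shared with H2-D1, which was at 0.41.

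All 8 class II genes lay lower, with a median of -0.19 (-0.12 without irradiated replicate 4). Of these only Ciita, the co-activator that switches on class II genes, reached an unadjusted p under 0.05, beside 1.74% of all genes in that direction. Ciita (chromosome 16, 10480059 to 10528418) was at 17.6, 20.9 and 25.6 CPM in the lowest, median and highest control and at 8.89, 15.6 and 16.7 CPM after irradiation. Every irradiated library lay below every control, beside 2 genes, or 0.0104% of all tested, that were separated in the lower direction. The log2 fold change was -0.54 ± 0.12 (SE, edgeR adjusted p 0.242), and the differences within D titles, -0.53, and within M titles, -0.54, were alike. Its annotated exons overlap Dexi on the opposite strand. The other 7 genes were spread from H2-Oa at a log2 fold change of -0.55 ± 0.36 (SE), through H2-Eb1 at -0.23, H2-DMb1 at -0.22, H2-Aa at -0.17, H2-Ab1 at -0.13 and Cd74 at -0.08, to H2-DMa at -0.004. With the D-titled libraries alone all 8 genes lay lower and 2 reached an unadjusted p under 0.05, beside 0.829% of all genes in that fit and direction. With the M-titled libraries alone 4 of the 8 lay higher.

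Among 16 checkpoint genes, 12 lay higher and 4 lower, with a median of 0.12 (0.07 without control replicate 7). The 4 with an unadjusted p under 0.05 were Cd274, Pdcd1lg2, Cd80 and Nt5e, all higher, beside 3.45% of all genes. Cd274 encodes PD-L1, the ligand that restrains T cells through PD-1, and was at 5.22 to 10.8 CPM in the controls and 6.53 to 21.7 CPM in the irradiated tumours, a log2 fold change of 0.75 ± 0.23 (SE, edgeR adjusted p 0.603). Pdcd1lg2, the other ligand of PD-1, was at 0.74 ± 0.27, Cd80, a ligand of CD28 and CTLA-4, at 0.69 ± 0.29, and Nt5e, the ectoenzyme that makes adenosine, at 0.38 ± 0.14. All 4 ranges overlapped between the groups.

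p53 targets lay higher in part. Of 28 tested, 22 lay higher and 6 lower, with a median of 0.11, and 7 reached an unadjusted p under 0.05, all higher, beside 3.45% of all genes: Cdkn1a, Trp53inp1, Gdf15, Pmaip1, Ccng1, Eda2r and Mdm2. None passed adjustment in edgeR, and DESeq2 called 0 of the 28.

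Cdkn1a (chromosome 17, 29090976 to 29100727) encodes p21, the inhibitor of cyclin-dependent kinases that stops the cell cycle in damaged cells. In the controls it was at 17.5, 29.2 and 57.8 CPM in the lowest, median and highest library and after irradiation at 26.1, 83.2 and 125 CPM. The irradiated libraries formed separate sets: replicates 2, 3 and 7 were at 27.9, 37.6 and 26.1 CPM, inside the control range, and the other 5 were between 77.2 and 125 CPM, above every control. The log2 fold change was 1.24 ± 0.33 (SE, edgeR adjusted p 0.435). The difference in mean log2 CPM was 0.41 within D titles and 1.59 within M titles. Annotated exons of Cdkn1a overlap AC167363.2 on the opposite strand.

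Gdf15, a secreted stress cytokine, followed with a control median of 1.15 CPM and an irradiated median of 2.61 CPM, a log2 fold change of 1.01 ± 0.30 (SE). Pmaip1, the death gene also known as Noxa, was at 37.5 to 61.3 CPM and 51.5 to 122 CPM, a log2 fold change of 0.56 ± 0.17. Trp53inp1, a stress gene with roles in autophagy and death, was at 62.8 to 77.8 CPM and 73.9 to 110 CPM, and 7 irradiated libraries lay above every control.

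The other named targets varied. Mdm2, the ligase that degrades p53, had a log2 fold change of 0.18 ± 0.08 (SE), with medians of 50.2 CPM in the controls and 55.3 CPM after irradiation. Ccng1, a cyclin that p53 switches on, was at 0.32 ± 0.10, with all 8 irradiated libraries above the control median of 87.0 CPM but only 1 above the highest control. Eda2r, a death receptor of the tumour necrosis factor family, was at 0.64 ± 0.24, and Phlda3, which restrains AKT, at 0.12 ± 0.11 (0.07 without control replicate 4). The death genes Bax and Bbc3 were each at 0.11.

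In the irradiated libraries Cdkn1a and Isg15 were both highest in replicate 8 and both lowest in replicate 7. Of 6 relations computed between single genes, that of Cdkn1a with Isg15 in the irradiated libraries was the only 1 that passed adjustment. The Cdkn1a values formed sets of 3 and 5 libraries, neither with 6, so its pooled r is not given. Without the 2 libraries farthest from the median of Cdkn1a, r over the other 6 was 0.624 (exact permutation p 0.188), so the relation no longer passed; fewer libraries were tested there. In the controls Cdkn1a and Isg15 had a Pearson r of 0.0447 (exact permutation p 0.916) and a Spearman rho of 0.0714 (exact permutation p 0.882) over 40320 pairings. Without the 2 farthest libraries r was 0.434 (exact permutation p 0.401). The p adjusted over the 6 relations was 0.916 for r and 0.882 for rho. Cdkn1a and Mki67 in the controls had an r of -0.734 (exact permutation p 0.0393, adjusted 0.118) and a rho of -0.786 (exact permutation p 0.0279, adjusted 0.0838). Without the 2 farthest libraries that r was -0.635 (exact permutation p 0.174). In the irradiated libraries Cdkn1a with Mki67 did not reach an unadjusted p under 0.05. There r without the 2 farthest libraries was -0.574 (exact permutation p 0.244). Isg15 with Cd8a did not reach an unadjusted p under 0.05 in either group.

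Cell cycle genes lay slightly lower. Of 20 mitosis genes 18 lay lower, with a median of -0.16, and 2 reached an unadjusted p under 0.05, beside 1.74% of all genes in the lower direction: Cenpe, the kinesin that attaches chromosomes to the spindle, at -0.38 ± 0.13 (SE), and Mki67, the Ki-67 proliferation marker, at -0.34 ± 0.14. Mki67 was at 123, 154 and 242 CPM in the lowest, median and highest control and at 99.3, 119.2 and 167 CPM after irradiation, so the ranges overlapped. With irradiated replicate 8 left out, 7 of the 20 reached an unadjusted p under 0.05 in the lower direction, beside 2.37% of all genes in that fit, and without control replicate 4 only 1 did.

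Of 21 DNA replication genes 20 lay lower, with a median of -0.09 (-0.057 without irradiated replicate 4), and Cdc6, which loads the replicative helicase, and Uhrf1, which maintains DNA methylation, reached an unadjusted p under 0.05, beside 1.74% of all genes in the lower direction. That count was 0 without control replicate 8 or irradiated replicate 1 or 4, 1 without control replicate 1 or irradiated replicate 3, 4 without control replicate 7 and 5 without irradiated replicate 8. Pcna, the sliding clamp of DNA polymerases, was at 88.6 ± 8.74 CPM in the controls and 87.0 ± 20.2 CPM after irradiation (SD). Of 23 genes for double-strand break repair 19 lay lower, with a median of -0.07 (-0.11 without irradiated replicate 2). Brca2, which acts in homologous recombination, was at a log2 fold change of -0.40 ± 0.10 (SE, edgeR adjusted p 0.365) and Fancd2, of the crosslink repair pathway, at -0.28 ± 0.12.

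Genes for the making of cholesterol and fatty acids lay lower as a group. These are targets of the SREBP transcription factors, which are switched on when cells run short of sterols, and the list was put together after the values had been seen. All 25 lay lower in the irradiated tumours, with a median of -0.37, and 18 reached an unadjusted p under 0.05, beside 1.74% of all genes in the lower direction. In 12 of the 25 genes all 8 irradiated libraries lay at or below the control median, beside 1.09% of all genes. Within the D-titled libraries all 25 lay lower and within the M-titled libraries 21 did.

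Lrp8, a lipoprotein receptor that is not in the list, was at 35.6 to 54.5 CPM and 23.5 to 36.0 CPM, a log2 fold change of -0.51 ± 0.10 (SE, edgeR adjusted p 0.193).

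Enzymes of the pathway lay lower, and over the 25 listed genes the log2 fold change ran from -1.065 to -0.038. Elovl6, which lengthens saturated fatty acids, was at 30.1, 40.0 and 48.7 CPM in the lowest, median and highest control and at 17.01, 25.7 and 36.4 CPM after irradiation, and 7 of 8 irradiated libraries lay below every control. Its log2 fold change was -0.60 ± 0.13 (SE, edgeR adjusted p 0.242), and -0.68 without irradiated replicate 7 (edgeR adjusted p 0.0432). Lss, which closes the sterol rings, was at -0.49 ± 0.12, Aacs, which feeds acetoacetate into lipid synthesis, at -0.51 ± 0.13, and Sqle, which makes squalene epoxide, at -0.45 ± 0.13. Annotated exons of Elovl6 and Lss overlap Gm35986 and 4930483K19Rik on the opposite strand.

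Some differences in the list rested in large part on a single control. The gene below was singled out after its values had been seen. Scd1, the desaturase that makes oleic acid, had a log2 fold change of -0.99 ± 0.37 (SE), but control replicate 5 was at 651 CPM and the next control at 167 CPM, and without that library the value was -0.32. That library also had the highest adipocyte marker score, 3.84 above the control mean on the log2 scale, with the adipocyte gene Cfd at 171 CPM. Without it all 25 genes still lay lower and 19 reached an unadjusted p under 0.05, beside 1.76% of all genes. The 4 tested adipocyte genes of 9 listed had a median of -1.10, and -0.15 without it.

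**Figure D3:**
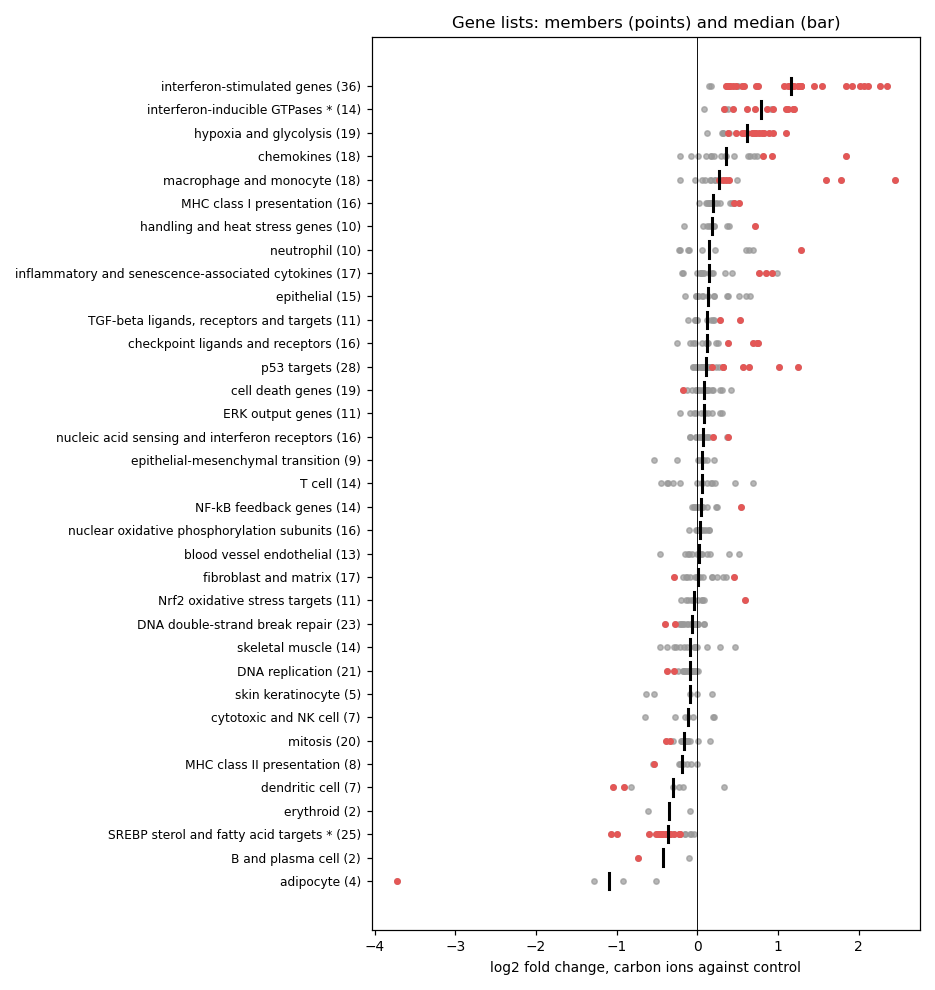
Log2 fold changes of the tested members (points) and their median (bar) for each gene list, with the number tested in brackets; red points have an unadjusted p under 0.05 and an asterisk marks the lists put together after the values had been seen. Interferon-stimulated genes lie to the right with a median of 1.16, SREBP targets lie to the left with a median of -0.37, and most lists centre near 0.

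Hypoxia and glycolysis genes lay higher, unevenly. They are induced by HIF-1 when oxygen is short. All 19 lay higher, beside 52.8% of all genes, with a median of 0.61, and 14 reached an unadjusted p under 0.05, beside 3.45% of all genes. Bnip3, a mitophagy receptor, was at a log2 fold change of 1.09 ± 0.39 (SE), Ero1a, an oxidase of protein folding, at 0.89 ± 0.26, and P4ha1, a collagen prolyl hydroxylase, at 0.67 ± 0.16 (edgeR adjusted p 0.313). P4ha1 was at 45.5 to 85.1 CPM in the controls and 83.2 to 184 CPM after irradiation, with 7 irradiated libraries above every control. The list score was highest in irradiated replicates 4 and 5, at 1.53 and 1.15 above the control mean, and lowest in control replicate 4, at -0.78. Leaving out any of these 3 libraries left 8 of 19 genes at an unadjusted p under 0.05 without irradiated replicate 4, 9 without irradiated replicate 5 and 9 without control replicate 4. Over all genes the shares in the higher direction were 2.8%, 2.61% and 3%. With D-titled libraries alone 2 of 19 reached it, beside 1.12% of all genes.

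Myeloid genes gave some of the highest ranks. Msr1, a scavenger receptor of macrophages that was singled out after its values had been seen, was at 20, 26.6 and 34.7 CPM in the lowest, median and highest control and at 27.2, 45.2 and 52.8 CPM after irradiation. Of the irradiated libraries 7 lay above every control, and the log2 fold change was 0.69 ± 0.13 (SE, edgeR adjusted p 0.158), and 0.76 without irradiated replicate 7 (edgeR adjusted p 0.0136). The differences in mean log2 CPM were 0.66 within D titles and 0.68 within M titles.

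The general macrophage markers differed less. Of 18 macrophage and monocyte markers 16 lay higher, with a median of 0.27, and 7 reached an unadjusted p under 0.05, beside 3.45% of all genes, among them Ly6c2, Lyz2, Chil3, Mertk, C1qa and Apoe. Without irradiated replicate 8 only 2 did, beside 3.69% of all genes. The count was 3 without control replicate 1 or 8, and 4 without control replicate 4 or 6 or irradiated replicate 3 or 6. Chil3, a chitinase-like protein, had a log2 fold change of 1.78, and 0.49 without irradiated replicate 3. Its irradiated median, 1.43 CPM, lay below its control median, 1.62 CPM, and only 4 irradiated libraries lay above that control median. Csf1r, the receptor for the main macrophage growth factor, was at 146 ± 24.2 CPM in the controls and 152 ± 36.8 CPM after irradiation (SD), and Adgre1, which encodes F4/80, at 35.2 ± 5.12 and 37.5 ± 8.76 CPM. Ly6c2, a marker of inflammatory monocytes, had a log2 fold change of 2.45 ± 0.84 (SE) that rested on replicate 8 at 25.4 CPM; without it the value was 0.80. Chil4, a chitinase-like gene close in sequence to Chil3 and singled out after its values had been seen, had the highest fitted value of those described, 5.86 ± 1.27, with 132 CPM in irradiated replicate 4, 27.2 CPM in replicate 1 and a control median of 0.22 CPM. Only 4 irradiated libraries lay above every control, and without replicate 4 the value was 4.14.

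Inflammatory genes outside the interferon branch were mixed. Of 17 cytokines and proteases linked to inflammation and senescence 14 lay higher, with a median of 0.14 (0.053 without irradiated replicate 8), and 3 reached an unadjusted p under 0.05 in the higher direction, beside 3.45% of all genes, among them Mmp13 and Csf2, a growth factor of myeloid cells. The count was 5 without control replicate 1 or irradiated replicate 2. Mmp13, a collagenase, was at 23.6 to 47.0 CPM in the controls and 35.9 to 89.8 CPM after irradiation, a log2 fold change of 0.77 ± 0.16 (SE, edgeR adjusted p 0.193), with 7 irradiated libraries above every control. Il6 was at 0.09 and Il1b at -0.17. Of 14 NF-kB feedback genes 10 lay higher and 4 lower, with a median of 0.04 (0.013 without control replicate 6), and only Tnip3 reached an unadjusted p under 0.05, a share near that of all genes (5.2% in either direction), and 1 or 2 did when 1 library was left out.

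Lymphocyte markers were scarce. Cd8a was at 0.08, 0.26 and 0.37 CPM in the lowest, median and highest control and at 0.11, 0.30 and 0.89 CPM after irradiation, a log2 fold change of 0.47 ± 0.40 (SE, edgeR adjusted p 1), and 0.09 without irradiated replicate 1. The difference in mean log2 CPM was 0.88 within D titles and -0.15 within M titles, so no common direction was seen. Gzmb, the granule protease of cytotoxic cells, was at a log2 fold change of 0.20 ± 0.51, from -0.17 without irradiated replicate 8 to 0.83 without control replicate 6, also with opposite directions, 1.26 within D titles and -0.47 within M titles. Of 14 tested T cell markers 8 lay higher and 6 lower, with a median of 0.06 (-0.032 without control replicate 1) and none at an unadjusted p under 0.05. Of 7 tested cytotoxic and NK cell markers 2 lay higher. No difference in T cell markers beyond the spread between libraries was seen.

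Dendritic cell markers lay lower in 6 of 7 tested, with a median of -0.30. Xcr1 and Clec9a, which mark the dendritic cells that cross-present antigen to CD8+ T cells, reached an unadjusted p under 0.05, beside 1.74% of all genes in the lower direction, at -1.04 ± 0.36 and -0.92 ± 0.33 (SE). All 8 irradiated libraries lay at or below the control median for both, as for 1.09% of all genes, and their control medians were only 1.01 and 1.28 CPM. Ighm, the constant chain of IgM, was at -0.74 ± 0.23. Of 10 tested neutrophil markers 6 lay higher, and Retnlg alone reached an unadjusted p under 0.05, beside 3.45% of all genes in the higher direction, with 0 to 3 doing so when 1 library was left out (0 without irradiated replicate 3, 3 without irradiated replicate 2 or control replicate 6).

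Genes of the stroma and epithelium went in both directions. Col1a1, the main fibrillar collagen, was at 5056 ± 1295 CPM in the controls and 5091 ± 2131 CPM after irradiation (SD), and Krt19, a duct epithelial keratin, at 630 ± 139 and 635 ± 225 CPM. Of 17 fibroblast and matrix genes 9 lay higher and 8 lower, with a median of 0.01. The 2 that reached an unadjusted p under 0.05, beside 5.2% of all genes, differed in sign: Tagln, an actin-binding protein of contractile cells, was at 0.46 ± 0.14 (SE, edgeR adjusted p 0.62) with all 8 irradiated libraries above the control median, and Pdgfrb, a platelet-derived growth factor receptor, at -0.29 ± 0.11 (SE, edgeR adjusted p 0.82) with none above. Of 13 endothelial genes 7 lay higher and 6 lower, with a median of 0.02. Of 15 epithelial genes 12 lay higher, with a median of 0.13 and none at an unadjusted p under 0.05. Nuclear genes for oxidative phosphorylation had a median of 0.03, cell death genes 0.09, ERK output genes 0.08, Nrf2 targets -0.04 and genes of epithelial-mesenchymal transition 0.06. These medians moved when 1 library was left out: to -0.17 for fibroblast genes without irradiated replicate 8, to -0.036 for endothelial genes and 0.034 for Nrf2 targets without irradiated replicate 3, and to -0.029 for oxidative phosphorylation without irradiated replicate 2. Epithelial genes were at 0.046 without irradiated replicate 7, cell death genes at 0.057 without irradiated replicate 8, ERK output genes at 0.022 without control replicate 7 and genes of epithelial-mesenchymal transition at 0.014 without control replicate 4. The other ends of these ranges were 0.13 for fibroblast and for endothelial genes and 0.12 for ERK output genes, all without control replicate 5. Nrf2 targets were at -0.097 without irradiated replicate 2. Without irradiated replicate 8 oxidative phosphorylation was at 0.065 and epithelial genes at 0.21. Without irradiated replicate 3 cell death genes were at 0.12 and genes of epithelial-mesenchymal transition at 0.10. Of 11 TGF-beta genes 6 lay higher and 5 lower, with a median of 0.12, which was 0.00092 without irradiated replicate 8. Ccn2, a matrix-associated growth regulator, was at 0.53 ± 0.15 (SE) and the receptor Tgfbr1 at 0.28 ± 0.10. These 2 reached an unadjusted p under 0.05, beside 3.45% of all genes in the higher direction, and 0 to 4 did over the 27 alternatives. Handling and heat stress genes lay higher in 9 of 10, with a median of 0.18, and only Hspa1a reached an unadjusted p under 0.05, beside 3.45% of all genes in the higher direction. With 1 library left out 0 to 3 did, 0 without irradiated replicate 4 and 3 without irradiated replicate 3. The part of handling in the other results was not tested.

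**Figure D4:**
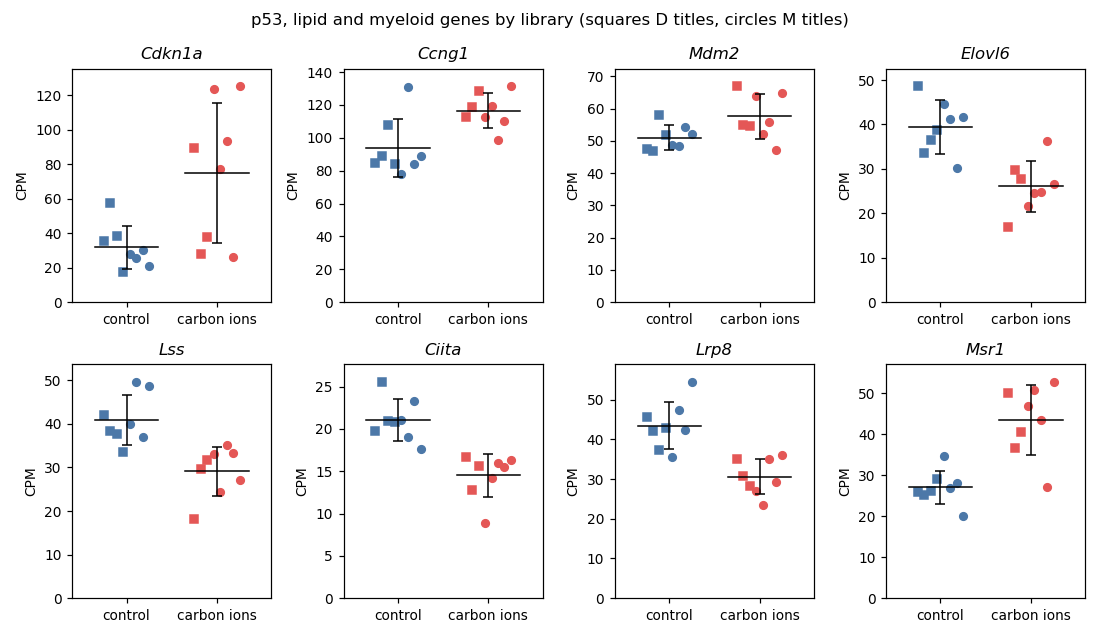
Levels of 8 genes in CPM (vertical axis, from 0) in the 8 control and 8 carbon-ion libraries, drawn as in the plot of interferon genes, with the mean and 1 SD. Cdkn1a spreads widely after irradiation, while Ciita lies below every control in all 8 irradiated libraries.

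Some named genes belonged to none of the lists. Sorbs2, an adaptor of the actin cytoskeleton, was at 141 to 188 CPM in the controls and 101 to 145 CPM after irradiation, a log2 fold change of -0.33 ± 0.08 (SE, edgeR adjusted p 0.289). Itih5, which encodes a hyaluronan-binding matrix protein, was at -0.81 ± 0.19, Frem1, a basement membrane protein, at -0.82 ± 0.21 (-1.02 without irradiated replicate 7, edgeR adjusted p 0.0383), and Ntrk2, the receptor of brain-derived neurotrophic factor, at -1.24 ± 0.32. Besides Bst2, Tgtp1 and Igtp, the genes separated in the higher direction were Npc2, which carries cholesterol out of lysosomes, and Prelid2. Npc2 was at 150 to 174 CPM in the controls and 176 to 227 CPM after irradiation, a small but even difference of 0.26 ± 0.07 (SE, edgeR adjusted p 0.413). Besides Ciita, the gene separated in the lower direction was Slc16a12, a solute transporter, at 1.95 to 2.83 and 0.84 to 1.91 CPM. These 3 genes were singled out after their values had been seen.

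The differences within each title letter were compared by an interaction term. Of 19144 genes 0 had an adjusted p under 0.05 (0% called), edgeR's lowest adjusted p being 0.845, and an unadjusted p under 0.05 was reached by 891 genes, or 4.65%. Interferon-stimulated genes lay higher in 35 of 36 with D titles alone and in 36 of 36 with M titles alone, and 19 and 23 of them reached an unadjusted p under 0.05 in the higher direction. For p53 targets the numbers at that level were 1 of 28 with D titles and 6 of 28 with M titles. Over all genes it was reached by 1.12% with D titles, from 3 irradiated and 4 control libraries, and by 4.1% with M titles, from 5 and 4, so the counts of these separate fits do not compare the letters. For Isg15 the difference in mean log2 CPM was 1.71 with D titles and 1.80 with M titles.

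**Figure D5:**
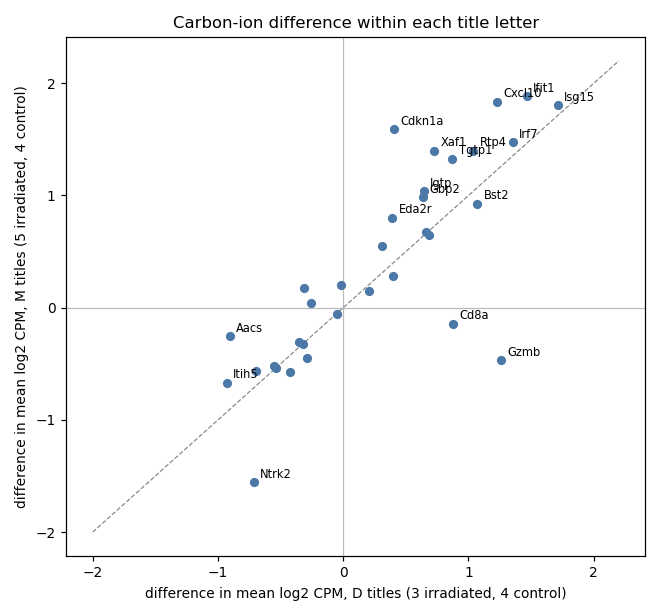
Difference in mean log2 CPM between irradiated and control libraries within D titles (horizontal axis, 3 against 4 libraries) and within M titles (vertical axis, 5 against 4), for the genes named by rank and those named by function; the dashed line marks equality. Most genes lie in the upper right or lower left of the plot, Cdkn1a is at 0.41 and 1.59, and Cd8a and Gzmb have opposite signs.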

How the data were processed

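RNA-seq of 16 tumours was analysed, 8 irradiated and 8 control, grouped by the treatment label. Per the labels' protocols, tissue was kept in RNAlater, RNA with an integrity number above 7.0 was used, and a stranded mRNA kit made the libraries. Per the submitters' processing notes, FastQC 0.12.0, Trimmomatic 0.32, RSEM 1.3.3 and build mm10 were used. Annotation and the strand setting of the counting are not given in the sources used here. The authors deposited estimated counts for 55103 gene symbols, and of the 424912 values above 0 only 2.69% lay within 0.01 of a whole number; whether they were rescaled before deposit is not given in the sources used here. The tests had been planned for whole counts, so values were rounded, which altered totals by at most 0.00144%. The 16 photon-arm columns were not used.

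Genes were kept by filterByExpr (minimum count 10), leaving 19144, scaled by TMM and tested with edgeR 4.0.16 in R 4.3.3 (quasi-likelihood, group as the only term, Benjamini-Hochberg over all genes, threshold 0.05). Log2 CPM used a prior count of 2. SE was the log2 fold change divided by the square root of F. Alternatives were RLE and upper-quartile scaling, DESeq2 1.42.0, limma 3.58.1 voom, a robust fit, no filter or CPM of at least 1 in 8 libraries, the title letter as a term, each letter alone, and leaving out each library. Simulated data for this comparison had 19144 genes. There edgeR recovered 88 of 100 genes at a log2 fold of 1 and 96 of 100 at 2, with 8 false calls. DESeq2 recovered 94 and 98, with 33 false calls. Changes were placed only in genes above a minimum mean level, and both groups were given the same spread. The real irradiated libraries varied more than the controls, so these counts do not measure the power of the real comparison.

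Named genes were the 10 highest-ranked by p in each direction whose mean log2 CPM was 1 or more and whose name was settled, the 3 largest log2 fold changes in each direction at an unadjusted p under 0.01, 18 genes by function, up to 4 members of each list by p, and genes said to be singled out; other list members are named for their role, after their values were seen. The members and lists were chosen with earlier results of these data known. Some genes are not reported here, though list counts include them.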

Additional observations from a re-analysis of the deposited data

Results flagged for a closer look

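In each group of 8 libraries, the highest and the lowest value were compared with the nearest other value, and a gap above 0.526 of the whole range set a library apart by Dixon's criterion. Of 162 groups examined 16 passed, where chance gives about 1 in 20 for independent, normally spread values. CPM has a long upper tail and many of the genes were picked for extreme values. The rate of 1 in 20 therefore does not apply here, and 16 is not read as more than chance.

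Irradiated replicate 8 stood apart in 4 single genes: Irf7 was at 83.0 CPM against 38.6 in the next library, Oas3 at 25.6 against 11.7, Ly6c2 at 25.4 against 3.92, and Gzmb at 4.33 against 2.23 CPM (4.325 and 2.235 before rounding). Irradiated replicate 4 stood apart for Chil4 at 132 CPM, Vldlr, a lipoprotein receptor, at 100.5 CPM and Prelid2 at 3.88 CPM (3.875 before rounding). Irradiated replicate 3 was highest in Chil3 at 28.6 CPM (28.55 before rounding) and irradiated replicate 1 in Cd8a at 0.89 CPM. Irradiated replicate 7 had the largest total, 71645903 estimated counts (71.6 M), against 41.9 M in the next.

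Control replicate 5 was the highest of its group for Ifit1 at 7.18 CPM and Scd1 at 651 CPM (650.7 before rounding). Control replicate 4 was highest in Chil4 at 1.53 CPM and Sorbs2 at 188.5 CPM, and control replicate 6 in Gzmb at 5.10 CPM. Control replicate 1 had the lowest T cell score, at -1.13 against the control mean on the log2 scale.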

How the results depend on the processing

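The count of genes at an adjusted p under 0.05 was 0 in edgeR and also under RLE and upper-quartile scaling, the robust fit, no filter, the stricter filter, the title letter as a term, M titles alone and voom without weights, which was added after the data were seen. It was 53 with DESeq2, 6 with voom and sample quality weights, and 2 with D titles alone (H2bc24 higher and Gm20507 lower, named after their values were seen). Leaving out 1 library gave 0 to 13, with 13 only without irradiated replicate 7. The cause was not tested. Genes at an unadjusted p under 0.05 numbered 2332 with no filter, where more genes were tested, 388 with D titles alone, where fewer libraries were, and 772 to 1297 when 1 library was left out. With D titles alone the median log2 fold change was -0.062 for NF-kB feedback genes, -0.0028 for cell death genes, -0.032 for TGF-beta genes, -0.12 for ERK output genes and 0.30 for keratinocyte markers; the cause was not tested.

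Signs reversed in 5 of the genes followed through the alternatives. Their log2 fold changes in edgeR were 0.47 for Cd8a, 0.20 for Gzmb, -0.03 for Pcna and 0.01 for Krt19 and Col1a1. Genes named only as members of a list were not followed in this way. With M titles alone Cd8a was at -0.16 and Gzmb at -0.39, and with D titles alone Pcna was at 0.014, Krt19 at -0.20 and Col1a1 at -0.12. Krt19 was at -0.021 with upper-quartile scaling, -0.17 with voom weights and -0.044 with unweighted voom. Col1a1 was at -0.032 with voom weights, -0.035 with the title letter as a term and -0.047 with unweighted voom. With 1 library left out, Gzmb ran from -0.17 to 0.83, Pcna from -0.11 to 0.021, Krt19 from -0.083 to 0.088 and Col1a1 from -0.17 to 0.12; the cause was not tested. Of the single genes' other values, 1243 kept their direction and side of the threshold and 47 passed it. Over 27 alternatives, interferon-stimulated genes with an unadjusted p under 0.05 numbered 19 to 33 of 36, SREBP targets 11 to 21 of 25, hypoxia genes 2 to 15 of 19 and p53 targets 1 to 9 of 28. The share over all genes moved between fits too. In the higher direction it was 3.45% in the main fit, 1.12% with D titles alone and 4.1% with M titles alone. In the lower direction it was 1.74% in the main fit, 0.829% with D titles alone and 2.37% without irradiated replicate 8. No paired analysis was possible because the replicate numbers were given by accession order and tie no library to another. Depth limits Ifnb1 and Ifng.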
